A study of Mus musculus with 12 samples.

Results

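The genes described here are 32 genes of glucose uptake, glycolysis, lactate export, control of pyruvate dehydrogenase (PDH) and the response to low oxygen, measured in mouse embryonic stem (ES) cells labelled as knockouts of Bcat1. They were listed by gene symbol and function, with earlier results of these data known, and make up 32 of 52535 gene entries in the count files. Reads were counted per gene in 6 RNA libraries of the E14 line, 2 in each of 3 groups. Clone 2 and clone 1 are lines whose labelled genotype is Bcat1-KO, and the wild type (WT) is E14 with the labelled genotype WT. All 3 groups were grown with serum, LIF, which maintains self-renewal, and the kinase inhibitor mix 2i. Each knockout line is a single clone, so an effect of the genotype and a property of that clone cannot be told apart within 1 clone. How the gene was disrupted is not given in the sources used here, and 6 samples of a separate time course were not analysed here.

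Glycolysis splits glucose into pyruvate in the cytosol, and lactate dehydrogenase then turns pyruvate into lactate, which monocarboxylate transporters carry out of the cell. Pyruvate can instead enter the mitochondrion, where PDH makes acetyl-CoA from it, and PDH kinases switch that enzyme off by phosphorylation. When oxygen is low, the prolyl hydroxylases that mark the factor HIF for destruction lose activity, and HIF raises many glycolytic genes together with Egln3, Bnip3 and Ankrd37. Naive ES cells are known to use both glycolysis and respiration.

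Gene counts per library ran between 11976149 and 13923262, and all 32 genes were among the 14946 that passed the filter on low counts. Bcat1 RNA was not reduced in the libraries labelled knockout (583 and 579 CPM in clone 2 and 617 and 662 in clone 1, against 602 and 614 in WT; adjusted p = 0.977), where CPM is the count scaled to the library total (counts per 1000000) after TMM normalisation. The groups are therefore called by their labels throughout. A count of reads over the whole gene cannot show whether a functional protein is made. The 10 ES cell markers summed to 6056 to 6424 CPM in the libraries labelled knockout and 6732 to 6917 CPM in WT. The 9 fibroblast or feeder markers summed to 32.1 and 33.5 CPM in clone 1 and to 20.7 to 23.9 CPM in the other 4 libraries, with Postn, Lum, Dcn and Acta2 at 0 in all 6. The 6 markers of primitive endoderm summed to 4.81 to 8.56 CPM in the libraries labelled knockout and 2.47 to 4.43 CPM in WT. The mesoderm markers T and Mesp1 summed to 4.73 and 5.14 CPM in clone 2 and 7.06 and 10.4 CPM in clone 1, against 8.80 and 10.6 CPM in WT, with Hbb-bs at 0 in all 6. The part of these markers in the results was not tested, and in bulk RNA fewer cells of a type and less RNA per cell cannot be told apart. The libraries of clone 1 differed more from each other than those of the other groups, with a chi-square per gene of 8.79, against 3.27 in clone 2 and 3.57 in WT. Nothing in the labels states that the libraries of a group came from separate cultures. The p-values therefore cover the spread among these 6 libraries, which can be technical.

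Of the 10 genes with the highest level per kilobase in WT, Eno1 and Slc2a1 passed the test in a comparison with WT. Among the calls against WT, the log2 fold changes farthest from 0 were those of Egln3 (0.67), Eno3 (0.58) and Pfkm (-0.49) in clone 2, and of Eno3 (2.25), Ankrd37 (1.80), Egln3 (1.29) and Slc16a3 (0.97) in clone 1. A gene is called changed here when its adjusted p in edgeR's quasi-likelihood test was below 0.05 over all 14946 genes tested. Among the 32 genes, 6 rose and 5 fell in clone 2 against WT, where 17.9% of all tested genes were called (10.1% higher and 7.81% lower). In clone 1 against WT 12 rose and 2 fell, where 21.9% of all tested genes were called (12.4% higher and 9.53% lower). Of the 32 genes, 34.4% were thus called in clone 2 and 43.8% in clone 1, both above the share of all genes. The 2 comparisons share both WT libraries, so their calls are not independent of each other. The members' median log2 fold change was -0.06 in clone 2 and 0.16 in clone 1, against medians of all tested genes of 0.00 in both. The libraries differed little in total, since the 32 genes summed to 18006 and 18588 CPM in clone 2, 19697 and 19007 CPM in clone 1 and 18839 and 19094 CPM in WT. The count in clone 2 fell when any 1 of the 4 libraries compared was left out, and that in clone 1 fell without WT replicate 1. Such a fit leaves 1 library in a group and can lose calls among all genes, so the fall is not particular to the 32.

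**Figure D1:**
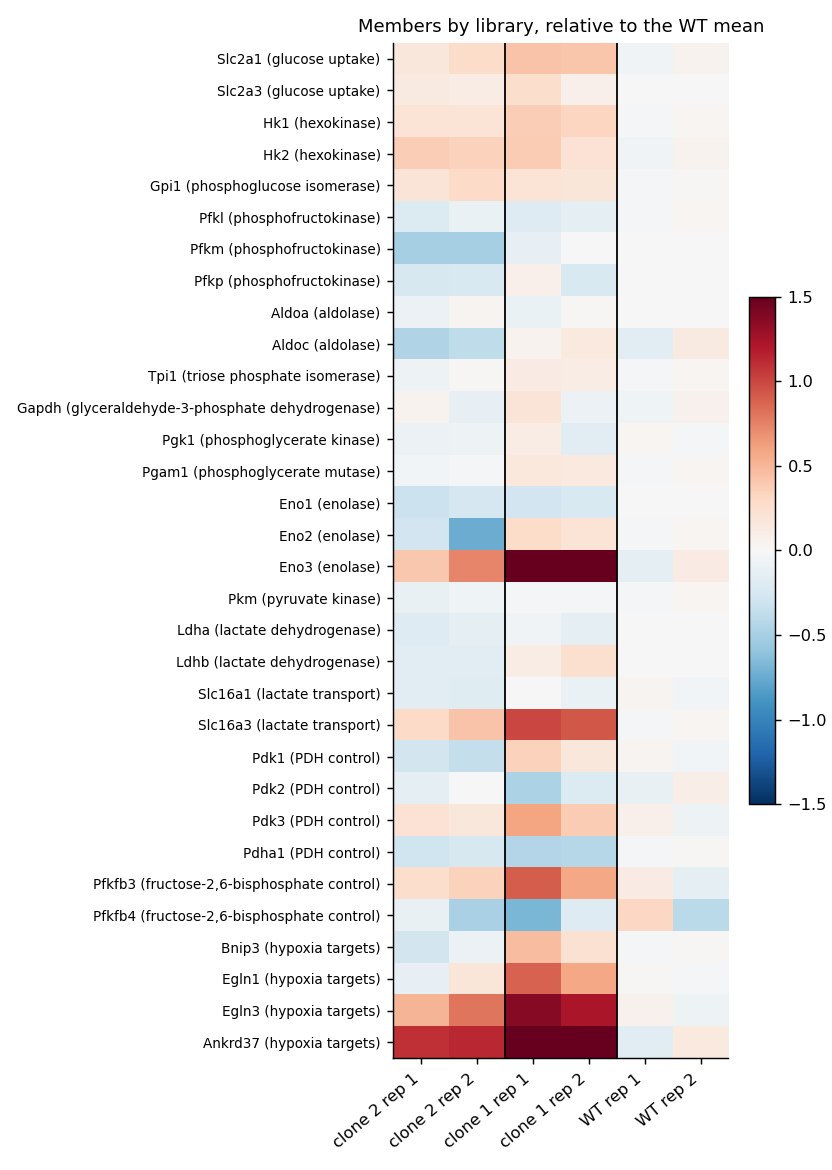
Each row is a gene with its role and each column a library, coloured by the log2 ratio of its CPM to the mean of both WT libraries (colour limited to -1.5 and 1.5). Eno3, Ankrd37 and Egln3 are the darkest rows in both clone 1 libraries, all 3 also lie above WT in both clone 2 libraries, and rows such as Pkm, Aldoa and Pgk1 stay near white.

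Taken as 1 genotype, the 4 libraries labelled knockout gave 4 called genes against WT, which is 12.5% of the 32 beside 6.36% of all tested genes (4.25% higher and 2.11% lower). Egln3 and Hk2 rose, and Eno1 and Pdha1 fell. In this fit the difference between the clones counts as spread, and it treats 4 libraries of 2 clones as independent. A block for the replicate number ended all 4 calls (adjusted p = 0.0602 to 0.0727). All 4 calls ended without WT replicate 1 or without WT replicate 2 (adjusted p between 0.226 and 0.418). Without clone 1 replicate 1 or clone 1 replicate 2 the count was 2. All 4 libraries labelled knockout lay above both WT libraries for 11 genes and below them for 4, together 46.9% of the 32 beside 35% of all tested genes (18.3% above and 16.7% below).

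**Figure D2:**
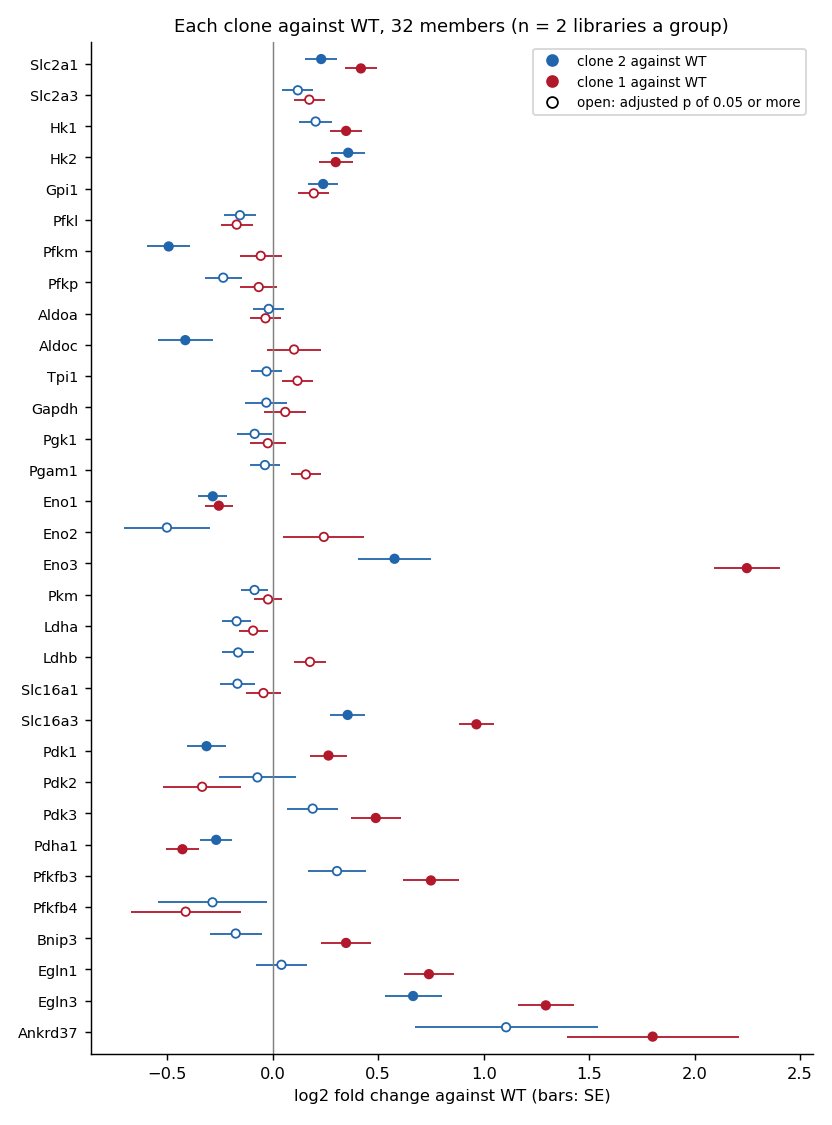
Log2 fold change of each gene against WT with its standard error as a bar, in clone 2 (blue) and clone 1 (red), 2 libraries a group. Filled points have an adjusted p below 0.05. Eno3 at 2.25 in clone 1 is the farthest to the right, and most enzymes from Aldoa to Pkm lie near 0.

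Of the 2 glucose transporter genes, Slc2a1 passed the test in both clones and Slc2a3 in neither. Slc2a1 encodes the broadly expressed glucose transporter GLUT1. The gene (chromosome 4, 119108711 to 119137983, plus strand, GRCm38, GENCODE M21) had 466 and 502 CPM in clone 2 and 554 and 549 CPM in clone 1, against 398 and 428 CPM in WT. All 4 libraries labelled knockout stood above WT, and Slc2a1 rose in clone 2 (log2 fold change 0.23 ± 0.08, SE, adjusted p = 0.0487) and in clone 1 (0.42 ± 0.08, adjusted p = 9.17e-04). The call in clone 2 ended under DESeq2 (adjusted p = 0.0613), with its size factors in edgeR (0.0515) and without any 1 of the 4 libraries compared (0.104 to 0.388). Slc2a3, which encodes the high-affinity transporter GLUT3 and was the more abundant of both per kilobase of exon, had 2273 and 2238 CPM in clone 2 and 2495 and 2190 CPM in clone 1, against 2079 and 2077 CPM in WT. It lay above WT in every library labelled knockout, with log2 differences of 0.12 and 0.17 in clone 2 and clone 1 that did not pass the test. Per kilobase, Slc2a1 made up 30.7% of the sum of both transporters in clone 2 and 32.8% in clone 1, against 29.1% in WT.

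Hexokinase traps glucose in the cell by phosphorylation. Hk2 (chromosome 6, 82725025 to 82774454, minus strand), a known HIF target, had 682 and 674 CPM in clone 2 and 689 and 613 CPM in clone 1, against 509 and 550 CPM in WT. It rose in clone 2 (log2 fold change 0.36 ± 0.08, adjusted p = 0.00460), in clone 1 (0.30 ± 0.08, adjusted p = 0.0125) and in the comparison of genotypes (0.33 ± 0.08, adjusted p = 0.0459). Every library labelled knockout was above both WT libraries. Without WT replicate 1 the adjusted p was 0.101 in clone 2 and 0.167 in clone 1, and without clone 2 replicate 1 it was 0.0710 in clone 2. Between genotypes the call ended without each library other than clone 1 replicate 2 (0.0541 to 0.418). Hk1, the widely expressed isozyme, had 237 and 236 CPM in clone 2 and 266 and 258 CPM in clone 1, against 202 and 210 CPM in WT. It rose in clone 1 (log2 fold change 0.35 ± 0.08, adjusted p = 0.00362; 0.0685 without WT replicate 1), and in clone 2 it differed by 0.20 ± 0.08, which did not pass (adjusted p = 0.0790). Gpi1, the isomerase that follows hexokinase, had 811 and 865 CPM in clone 2 and 817 and 809 CPM in clone 1, against 704 and 716 CPM in WT. Its rise in clone 2 was small (log2 fold change 0.24 ± 0.07, adjusted p = 0.0305) and its call ended without any 1 of the 4 libraries compared (0.126 to 0.313). In clone 1 Gpi1 stood 0.19 above WT (adjusted p = 0.0652). The longest transcript of Gpi1 matched Gm1840 at 98.625% over 873 bases, so how reads were shared between these is uncertain.

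Phosphofructokinase commits the sugar to glycolysis. Pfkm, named for its main place in muscle, had 44.8 and 44.8 CPM in clone 2 and 57.8 and 63.4 CPM in clone 1, against 63.0 and 63.2 CPM in WT. The 2 libraries of clone 2 stood below the other 4, and Pfkm fell in clone 2 against WT (log2 fold change -0.49 ± 0.10, adjusted p = 0.00242) and was lower in clone 2 than in clone 1 (-0.44 ± 0.10, adjusted p = 0.00739). The first call held in each alternative tried, and the second ended without either library of clone 2 (adjusted p = 0.0867 and 0.0880). Pfkl and Pfkp, the liver and platelet isozymes, were the more abundant per kilobase and were not called in any comparison. Pfkl lay slightly below WT in all 4 libraries labelled knockout (411 and 441 CPM in clone 2 and 414 and 429 CPM in clone 1, against 464 and 485 CPM in WT). Pfkp had 636 and 641 CPM in clone 2 and 793 and 642 CPM in clone 1, against 753 and 751 CPM in WT, so clone 1 replicate 1 stood apart from the other 3 libraries labelled knockout.

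Pfkfb3 and Pfkfb4 encode enzymes that set the level of fructose-2,6-bisphosphate, the strongest activator of phosphofructokinase. Pfkfb3, whose product has mostly kinase activity, had 32.2 and 34.2 CPM in clone 2 and 50.3 and 40.1 CPM in clone 1, against 29.4 and 24.4 CPM in WT. It rose in clone 1 (log2 fold change 0.75 ± 0.13, adjusted p = 6.69e-04), while its difference of 0.30 ± 0.14 in clone 2 did not pass (adjusted p = 0.137). Pfkfb3 was lower in clone 2 than in clone 1 (-0.45 ± 0.13, adjusted p = 0.0313), a call that ended in 7 of 11 alternatives. Among these were DESeq2 (adjusted p = 0.0571) and leaving out each library other than clone 1 replicate 2 (0.0503 to 0.208), and the adjusted p ranged from 7.45e-05 to 0.208 over all 11. Pfkfb4 was near the bottom of the range (7.43 and 5.69 CPM in clone 2 and 5.00 and 6.98 CPM in clone 1, against 9.95 and 6.06 CPM in WT), and its groups overlapped. Per kilobase, Pfkfb3 made up 76.5% of both in clone 2 and 82.7% in clone 1, against 68.9% in WT.

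Aldoa, Tpi1, Gapdh, Pgk1, Pgam1 and Pkm, which encode aldolase A, triose phosphate isomerase, glyceraldehyde-3-phosphate dehydrogenase, phosphoglycerate kinase, phosphoglycerate mutase and pyruvate kinase, were not called in any of the 4 comparisons. Their log2 fold changes lay between -0.09 for Pkm and -0.02 for Aldoa in clone 2, and between -0.04 for Aldoa and 0.16 for Pgam1 in clone 1. Pkm had the highest level of the 32 genes per kilobase in WT, at 669 ± 21.8 CPM per kilobase (SD, n = 2), followed by Pgk1 and Aldoa. Pkm had 3098 and 3201 CPM in clone 2 and 3278 and 3307 CPM in clone 1, against 3268 and 3422 CPM in WT. Aldoa had 1871 and 2039 CPM in clone 2 and 1857 and 2011 CPM in clone 1, against 1979 and 1984 CPM in WT. Both of these enzymes overlapped between groups. Gapdh had 219 and 193 CPM in clone 2 and 241 and 197 CPM in clone 1, against 201 and 220 CPM in WT. Its transcripts matched 43 other genes over 300 bases or more at 95% identity or above, and reads with several alignments, 15.63% to 16.65% of each library, stand outside the gene counts. The longest of the Gapdh matches had 306 bases. Pgk1 matched 4 other genes, of which Pgk1-rs7 was identical over 1255 bases. Pgam1 was identical to Pgam1-ps2 over 765 bases, and Pkm matched Gm6560 at 98.368% over 1593 bases. Which of these genes lost most reads to copies was not tested. The 18 genes that encode the enzymes from hexokinase to lactate dehydrogenase summed to 14480 and 15022 CPM in clone 2 and 15607 and 15308 CPM in clone 1, against 15510 and 15758 CPM in WT.

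Aldoc encodes aldolase C, known from brain. It had 21.9 and 23.1 CPM in clone 2 and 31.2 and 33.1 CPM in clone 1, against 26.9 and 33.0 CPM in WT. Clone 2 stood below all other libraries. Aldoc fell in clone 2 against WT (log2 fold change -0.42 ± 0.13, adjusted p = 0.0362) and was lower than in clone 1 (-0.52 ± 0.13, adjusted p = 0.0132). The first call ended under DESeq2 (adjusted p = 0.0799), without WT replicate 2 (0.340) and without either clone 2 library (0.213 and 0.122), and the second without either clone 2 library (0.129 and 0.0689).

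The enolases, which make phosphoenolpyruvate, moved in opposite directions. Eno3 (chromosome 11, 70657202 to 70662513, plus strand), the isozyme known from muscle, had 10.2 and 12.8 CPM in clone 2 and 37.3 and 36.2 CPM in clone 1, against 7.02 and 8.42 CPM in WT, and none of the 3 groups overlapped. The counts behind these values were 121 and 162 reads in clone 2, 470 and 472 in clone 1 and 91 and 114 in WT. Eno3 rose 4.75-fold in clone 1 (log2 fold change 2.25 ± 0.16, adjusted p = 4.05e-08) and 1.49-fold in clone 2 (0.58 ± 0.17, adjusted p = 0.0268), and it was lower in clone 2 than in clone 1 (-1.67 ± 0.15, adjusted p = 1.23e-06). Both calls that involve clone 1 held in each alternative. That of clone 2 against WT ended under DESeq2 (adjusted p = 0.0578), without WT replicate 1 or 2 (0.220 and 0.0582) and without clone 2 replicate 2 (0.283).

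Eno1 (chromosome 4, 150236721 to 150248879, plus strand), by far the most abundant enolase, had 1947 and 2051 CPM in clone 2 and 2001 and 2077 CPM in clone 1, against 2443 and 2427 CPM in WT. All libraries labelled knockout lay below WT, and Eno1 fell in clone 2 (log2 fold change -0.28 ± 0.07, adjusted p = 0.00717), in clone 1 (-0.26 ± 0.07, adjusted p = 0.0119) and between genotypes (-0.27 ± 0.07, adjusted p = 0.0462). Leaving out a WT library ended each of the 3 calls (adjusted p between 0.0560 and 0.349), as did leaving out either clone 2 library in the comparisons that use them, clone 2 against WT (0.143 and 0.0527) and between genotypes (0.106 and 0.0800). With no filter beyond 1 count the call between genotypes ended too (0.0540). Eno1b, a near-identical copy that matches Eno1 at 99.482% over 1736 bases, also fell in both clones, with log2 fold changes of -0.33 in clone 2 and -0.28 in clone 1. Few bases separate Eno1 from Eno1b along that stretch, so how reads were shared between them is uncertain. Eno2, the neuronal isozyme, was scarce. It had 7.52 and 5.46 CPM in clone 2 and 11.1 and 10.6 CPM in clone 1, against 8.95 and 9.38 CPM in WT. It was lower in clone 2 than in clone 1 (-0.74 ± 0.20, adjusted p = 0.0196), a call that ended under DESeq2 (adjusted p = 0.0552) and without clone 2 replicate 2 (0.252). Per kilobase, Eno3 made up 1.74% of the sum of the 3 enolases in clone 2 and 5.25% in clone 1, against 0.967% in WT, so Eno1 remained the main enolase in every library. The lengths used were all annotated exons, 5379 bases for Eno1 and 1739 for Eno3, where the longest transcripts have 2027 and 1564. Eno1 was thus scaled down more than Eno3, which raises the share of Eno3.

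Lactate dehydrogenase is built from the products of Ldha and Ldhb, where the Ldha subunit is the one that HIF raises. Ldha had 1418 and 1466 CPM in clone 2 and 1561 and 1483 CPM in clone 1, against 1627 and 1621 CPM in WT. It lay below WT in all 4 libraries labelled knockout, with log2 differences of -0.17 in clone 2 and -0.09 in clone 1 that did not pass the test. Ldhb had 389 and 394 CPM in clone 2 and 474 and 517 CPM in clone 1, against 440 and 438 CPM in WT. Clone 2 stood below WT and clone 1 above it, and Ldhb was lower in clone 2 than in clone 1 (-0.34 ± 0.08, adjusted p = 0.00591; 0.104 and 0.0837 without either clone 2 library). Ldhb lies 2.536 Mb from Bcat1 on chromosome 6. Its longest transcript matched Gm5514 at 98.004% over 1002 bases, so how reads were shared between these is uncertain.

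Lactate export showed 1 clear change. Slc16a3 encodes MCT4, the exporter typical of strongly glycolytic cells and a known HIF target. The gene (chromosome 11, 120948480 to 120960868, plus strand) had 137 and 151 CPM in clone 2 and 225 and 215 CPM in clone 1, against 110 and 115 CPM in WT, with no overlap among the 3 groups. Slc16a3 rose 1.28-fold in clone 2 (log2 fold change 0.35 ± 0.08, adjusted p = 0.00728) and 1.95-fold in clone 1 (0.97 ± 0.08, adjusted p = 5.23e-07), and was lower in clone 2 than in clone 1 (-0.61 ± 0.08, adjusted p = 1.08e-04). The calls that involve clone 1 held in each alternative, and that of clone 2 against WT ended without WT replicate 1 or 2 (adjusted p = 0.109 and 0.0526) and without clone 2 replicate 2 (0.162). Between genotypes the log2 fold change was 0.69 ± 0.19 and missed the threshold (adjusted p = 0.0663). Slc16a1 encodes MCT1, which carries lactate in both directions. It was not called in any comparison and had 155 and 153 CPM in clone 2 and 173 and 162 CPM in clone 1, against 178 and 168 CPM in WT. Per kilobase, Slc16a3 made up 43.75% of both transporters in clone 2 and 52.2% in clone 1, against 35.2% in WT.

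At the entry to the mitochondrion, Pdha1 fell in both clones and Pdk1 moved in opposite directions. Pdha1 encodes the catalytic subunit of PDH that the kinases act on. The gene (chromosome X, 160122209 to 160138413, minus strand) had 210 and 220 CPM in clone 2 and 191 and 193 CPM in clone 1, against 256 and 261 CPM in WT, and every library labelled knockout was below WT. Pdha1 fell in clone 2 (log2 fold change -0.27 ± 0.08, adjusted p = 0.0224), in clone 1 (-0.43 ± 0.08, adjusted p = 7.56e-04) and between genotypes (-0.35 ± 0.08, adjusted p = 0.0417). The call in clone 1 held in each alternative, and that in clone 2 ended without any 1 of the 4 libraries compared (adjusted p = 0.118 to 0.234). Between genotypes it ended without each library other than clone 2 replicate 2 (0.0512 to 0.297). Exons of Pdha1 overlap Map3k15 on the other strand, and without the strand setting of the counting their reads cannot be separated. The same limit holds for Slc2a1, Hk1, Gpi1 and Bnip3, whose exons also overlap a gene on the other strand. Exons of Pfkm overlap Senp1 on the other strand and Gm26513 on the same strand.

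Pdk1 (chromosome 2, 71873224 to 71903858, plus strand), the PDH kinase best known as a HIF target, had 93.9 and 88.5 CPM in clone 2 and 144 and 128 CPM in clone 1, against 117 and 110 CPM in WT. Clone 2 lay below WT and clone 1 above it. Pdk1 fell in clone 2 (log2 fold change -0.31 ± 0.09, adjusted p = 0.0235), rose in clone 1 (0.26 ± 0.09, adjusted p = 0.0438) and was lower in clone 2 than in clone 1 (-0.58 ± 0.09, adjusted p = 3.73e-04). The difference between clones held in each alternative. The fall in clone 2 ended without any 1 of the 4 libraries compared (adjusted p = 0.0830 to 0.226). The rise in clone 1 ended in 8 of 11 alternatives, among them DESeq2 (0.0871) and leaving out each library other than clone 1 replicate 2 (0.0862 to 0.271). Over all 11 its adjusted p ranged from 8.27e-04 to 0.271. Pdk3 had 34.0 and 33.0 CPM in clone 2 and 44.2 and 38.3 CPM in clone 1, against 31.0 and 27.8 CPM in WT, and it rose in clone 1 (0.49 ± 0.12, adjusted p = 0.00727; 0.110 without WT replicate 2). In clone 2 Pdk3 stood 0.19 above WT (adjusted p = 0.312). Pdk2 was scarce and its groups overlapped, at 10.1 and 11.2 CPM in clone 2 and 8.01 and 9.67 CPM in clone 1, against 10.3 and 11.97 CPM in WT.

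The 4 hypoxia targets outside metabolism were all called higher in clone 1, where 12.4% of all tested genes were called higher. In clone 2 only Egln3 was called higher, where 10.1% of all tested genes were, and Bnip3 lay below WT there (log2 difference -0.18, not called). Egln3 encodes the prolyl hydroxylase PHD3, which acts on HIF and is itself induced by it. The gene (chromosome 12, 54178981 to 54203860, minus strand) had 25.8 and 31.7 CPM in clone 2 and 46.7 and 42.4 CPM in clone 1, against 19.1 and 17.3 CPM in WT, and the 3 groups did not overlap. Egln3 rose 1.59-fold in clone 2 (log2 fold change 0.67 ± 0.14, adjusted p = 0.00238), 2.45-fold in clone 1 (1.29 ± 0.13, adjusted p = 2.69e-06) and 2.02-fold between genotypes (1.01 ± 0.23, adjusted p = 0.0289). It was lower in clone 2 than in clone 1 (-0.63 ± 0.13, adjusted p = 0.00278). The call in clone 1 held in each alternative. That in clone 2 ended without WT replicate 2 (adjusted p = 0.0541) or clone 2 replicate 2 (0.0642), and that between the clones without clone 2 replicate 1 (0.0846). Between genotypes the call ended without WT replicate 1 or 2 (0.226 and 0.265) and without clone 1 replicate 2 (0.0560).

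Egln1 encodes PHD2, the main oxygen-sensing hydroxylase. The gene (chromosome 8, 124908587 to 124949324, minus strand) had 51.4 and 63.5 CPM in clone 2 and 104 and 83.3 CPM in clone 1, against 56.7 and 55.1 CPM in WT. Clone 2 overlapped WT, while both clone 1 libraries stood above all others. Egln1 rose in clone 1 (log2 fold change 0.74 ± 0.12, adjusted p = 2.76e-04) and was lower in clone 2 than in clone 1 (-0.70 ± 0.12, adjusted p = 7.45e-04), and both calls held in each alternative. In clone 2 against WT its log2 difference was 0.04 ± 0.12 (adjusted p = 0.859). Bnip3, a mitophagy receptor, had 28.3 and 32.2 CPM in clone 2 and 46.9 and 40.04 CPM in clone 1, against 33.9 and 34.5 CPM in WT. It rose in clone 1 (0.35 ± 0.12, adjusted p = 0.0463) and was lower in clone 2 than in clone 1 (-0.52 ± 0.12, adjusted p = 0.00739; 0.130 without clone 2 replicate 1). The rise of Bnip3 in clone 1 ended in 8 of 11 alternatives, among them DESeq2 (adjusted p = 0.106) and leaving out each library other than clone 1 replicate 2 (0.0689 to 0.218). Over all 11 its adjusted p ranged from 0.00254 to 0.218. Transcripts of Bnip3 matched 5 other genes, 1 of them at 98.252% over 858 bases.

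Ankrd37 (chromosome 8, 45996902 to 46005707, minus strand), an ankyrin repeat gene induced by HIF, had the lowest level of the 32 genes per kilobase. It had 1.86 and 1.90 CPM in clone 2 and 3.57 and 2.53 CPM in clone 1, against 0.772 and 0.960 CPM in WT. These rest on 22 and 24 reads in clone 2, 45 and 33 in clone 1 and 10 and 13 in WT, so counting error is wide. Ankrd37 rose 3.48-fold in clone 1 (log2 fold change 1.80 ± 0.41, adjusted p = 0.00430; 0.0550 without WT replicate 1). In clone 2 it stood 1.11 ± 0.43 above WT and missed the threshold (adjusted p = 0.0897). Its exons overlap those of Ufsp2 and Lrp2bp on the other strand.

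**Figure D3:**
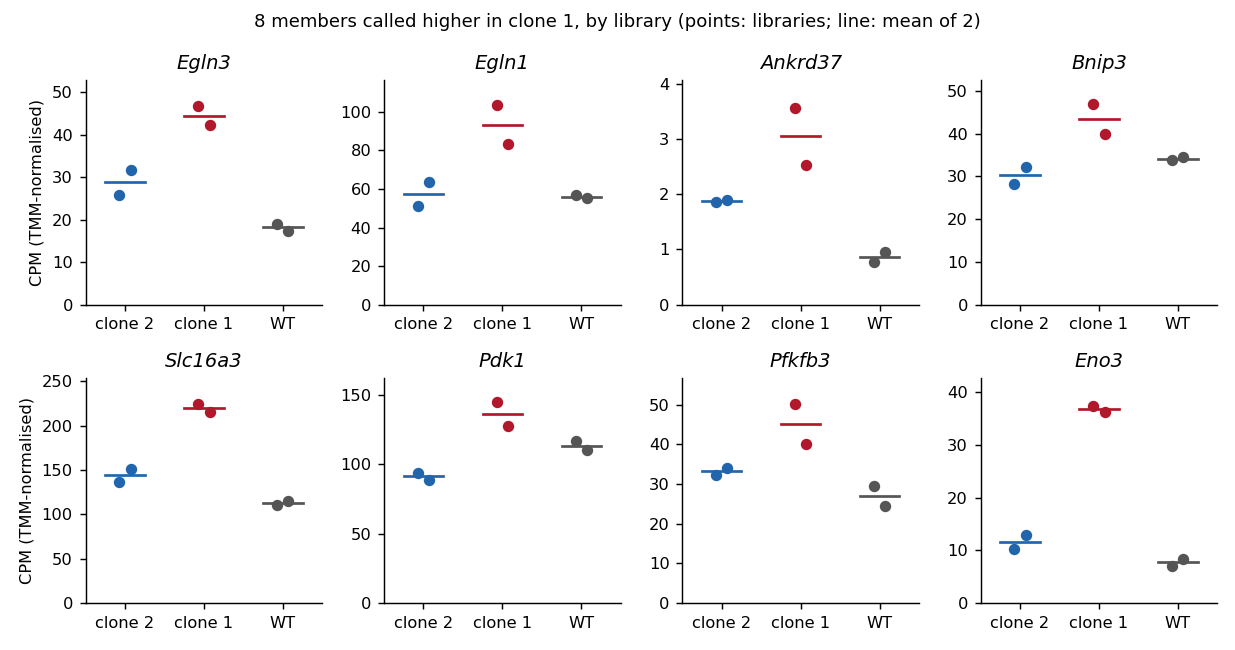
CPM of 8 of the 12 genes called higher in clone 1, with a point per library and a line at the mean of the 2 libraries of clone 2, clone 1 and WT; each axis starts at 0. Clone 1 is highest in all 8 panels, Egln3, Ankrd37, Slc16a3, Pfkfb3 and Eno3 are also above WT in clone 2, and Pdk1 is below WT in clone 2.

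Between the clones themselves, 11 of the 32 genes were lower in clone 2 than in clone 1 and 0 were higher, where 14.3% of all tested genes were called (7.71% lower and 6.62% higher). That 0 comes from edgeR, and 0 were higher at an unadjusted p under 0.05 and 0 by DESeq2. The 11 were Pfkm, Aldoc, Eno2, Eno3, Ldhb, Slc16a3, Pdk1, Pfkfb3, Bnip3, Egln1 and Egln3. The median log2 fold change of the 32 was -0.16, against 0.00 over all tested genes. The count fell when either clone 2 library was left out, which leaves 1 library in that group and can lose calls among all genes. This comparison shares the clone 1 libraries with clone 1 against WT and the clone 2 libraries with clone 2 against WT, so it is no independent look at them. Clone 1 replicate 1 had the lowest share of ambiguous reads of the 6 libraries at 6.96% (9.10% in clone 1 replicate 2), and the part of this in the differences was not tested.

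The hypoxia response element that HIF binds has the core ACGTG or GCGTG. The letters of this core were looked for on both strands in the 250 bases before the annotated starts, using RefSeq promoters of GRCm38.p6, which gave 45 windows for 31 of the 32 genes. Slc2a3 has no window in that table. Of the 45 windows 80% held at least 1 core, against 38.6% of all 32851 promoters and 55.1% of promoters of tested genes. Counted by gene, 28 of 31 (90.3%) had a core in at least 1 window, against 60.8% of tested genes and 41.5% of all genes. The windows of the 32 genes were richer in G and C (median 61.6%) than those of tested genes (59.6%) and all promoters (52.4%). The E-box CACGTG, which Myc and related factors bind, contains ACGTG on both strands and so counts as 2 cores. It stood in 13.3% of the 45 windows, 8.29% of promoters of tested genes and 6.02% of all promoters. The windows of Egln3, Slc16a3 and Ankrd37 are printed because these genes were called higher in clone 1, and 1 of both windows of Ldha because that gene was not called in any comparison although the window holds more cores than theirs. Each is written from 5′ to 3′ on the gene's own strand, and capitals mark the cores.
Egln3, chr12:54203875-54204124, minus strand, 1 core: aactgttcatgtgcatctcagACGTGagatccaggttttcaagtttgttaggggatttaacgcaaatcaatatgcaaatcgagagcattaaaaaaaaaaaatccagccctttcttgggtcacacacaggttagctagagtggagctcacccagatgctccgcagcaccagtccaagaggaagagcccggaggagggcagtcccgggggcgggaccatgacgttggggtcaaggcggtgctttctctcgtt
Slc16a3, chr11:120948817-120949066, plus strand, 2 cores: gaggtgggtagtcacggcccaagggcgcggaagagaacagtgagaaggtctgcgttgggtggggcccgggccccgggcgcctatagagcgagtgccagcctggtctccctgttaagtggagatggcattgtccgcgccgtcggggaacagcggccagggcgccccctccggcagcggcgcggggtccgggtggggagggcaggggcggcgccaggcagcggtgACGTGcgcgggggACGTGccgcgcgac
Ankrd37, chr8:45999851-46000100, minus strand, 4 cores: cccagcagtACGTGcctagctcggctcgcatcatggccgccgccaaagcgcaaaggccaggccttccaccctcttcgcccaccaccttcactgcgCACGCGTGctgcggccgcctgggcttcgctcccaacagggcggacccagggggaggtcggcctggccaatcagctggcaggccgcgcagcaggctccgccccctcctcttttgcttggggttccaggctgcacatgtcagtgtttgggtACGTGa
Ldha, chr7:46845554-46845803, plus strand, 5 cores, of which 4 lie in 2 E-boxes: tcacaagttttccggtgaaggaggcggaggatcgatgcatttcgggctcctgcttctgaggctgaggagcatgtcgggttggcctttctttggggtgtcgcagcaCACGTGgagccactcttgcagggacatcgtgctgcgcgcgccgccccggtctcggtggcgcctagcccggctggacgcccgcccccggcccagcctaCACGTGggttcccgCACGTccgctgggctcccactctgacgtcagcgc
In Ankrd37, GCGTG and its reverse complement CACGC overlap in 1 stretch. These are matches of letters and not known binding sites.

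Among 13 genes of oxygen sensing, 2 rose and 3 fell in clone 2, 3 rose and 2 fell in clone 1, and between genotypes 1 rose and 1 fell. Calls made up 38.5% of the list in each clone, beside 17.9% of all tested genes in clone 2 and 21.9% in clone 1, and 15.4% between genotypes, beside 6.36%. Hif1a, the main oxygen-regulated subunit, fell in clone 1 (65.1 and 61.2 CPM, against 85.9 and 74.7 CPM in WT; log2 fold change -0.35, adjusted p = 0.0181), and in clone 2 (81.3 and 82.2 CPM) it differed by 0.03 (adjusted p = 0.890). Epas1, which encodes HIF-2α, fell in clone 2 (10.7 and 8.54 CPM, against 16.1 and 16.1 CPM in WT; -0.74, adjusted p = 0.00554), and in clone 1 (15.1 and 18.0 CPM) it differed by 0.04 (adjusted p = 0.888). Arnt, the partner subunit, rose in clone 2 (0.34, adjusted p = 0.0209) and stood 0.20 above WT in clone 1 (adjusted p = 0.161). Arnt2, a related partner at 2.29 to 5.95 CPM in the libraries labelled knockout and 1.08 and 1.33 CPM in WT, rose between genotypes (1.68 ± 0.43, adjusted p = 0.0498). Vhl, which encodes the ligase subunit that recognises hydroxylated HIF, rose in clone 1 (0.36, adjusted p = 0.0253) and stood 0.29 above WT in clone 2 (adjusted p = 0.0865). Its complex partner Eloc fell between genotypes (-0.42 ± 0.11, adjusted p = 0.0461), and Cul2, the scaffold of that ligase, fell in clone 2 (-0.35, adjusted p = 0.0113). Hif1an, which encodes the asparagine hydroxylase FIH, was not called, with differences of 0.11 in both clones. HIF is controlled mostly through the stability of its protein, which counts of RNA do not show.

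Further hypoxia targets rose in each clone. Of 35 further targets listed, 33 were tested, and 8 rose and 1 fell in clone 2, 11 rose and 1 fell in clone 1, and 2 rose between genotypes. Called genes made up 27.3% of the 33 in clone 2, beside 17.9% of all tested genes, and 36.4% in clone 1, beside 21.9%. Between genotypes they made up 6.06%, close to the 6.36% of all tested genes. Between the clones 2 were higher in clone 2 and 9 lower, together 33.3% of the 33 beside 14.3% of all tested genes. Ak4, a mitochondrial adenylate kinase, had 317 and 316 CPM in clone 2 and 370 and 331 CPM in clone 1, against 243 and 253 CPM in WT, and it rose between genotypes (0.43 ± 0.09, adjusted p = 0.0229). Ero1l, an oxidase of the endoplasmic reticulum, likewise rose between genotypes (0.55 ± 0.12, adjusted p = 0.0284), at 145 and 159 CPM in clone 2 and 181 and 136 CPM in clone 1, against 113 and 98.9 CPM in WT. All libraries labelled knockout lay above WT for both genes. Plod2, a collagen lysyl hydroxylase, rose in clone 1 (0.95 ± 0.11, adjusted p = 1.51e-05) and so did Fam162a, a mitochondrial protein gene (0.63 ± 0.09, adjusted p = 7.89e-05). In clone 2 these differed from WT by 0.34 and 0.21 and missed the threshold. P4ha2, a collagen prolyl hydroxylase, was lower in clone 2 (22.7 and 25.7 CPM) than in clone 1 (46.6 and 39.2 CPM), at a log2 fold change of -0.82 (adjusted p = 3.10e-04). Stc2, which encodes a secreted glycoprotein, and P4hb, a protein disulphide isomerase, went the other way and rose in clone 2 (0.83 ± 0.11 and 0.40 ± 0.07), with differences of -0.14 and -0.07 in clone 1 that did not pass.

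**Figure D4:**
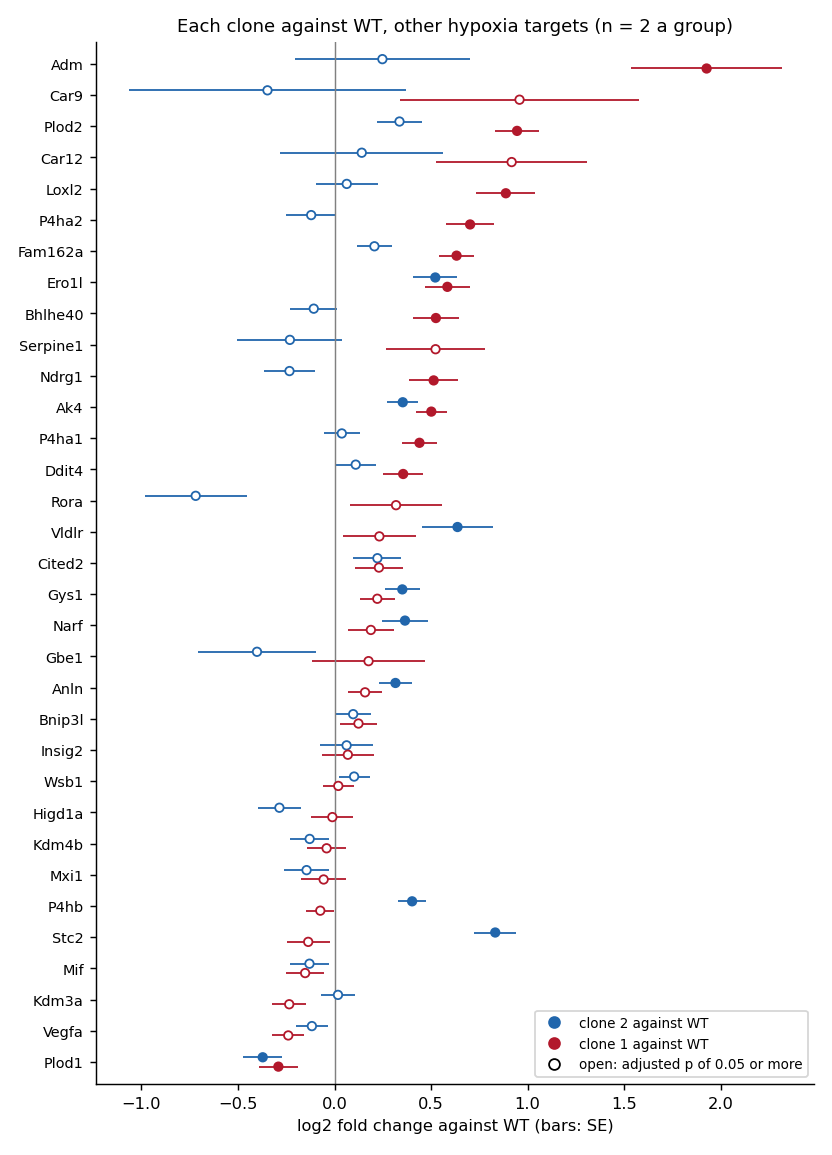
Log2 fold change against WT with its standard error as a bar for the 33 tested hypoxia targets that are not among the 32 genes, in clone 2 (blue) and clone 1 (red), sorted by clone 1; filled points have an adjusted p below 0.05. Most filled red points lie above 0, and Stc2 and P4hb are filled on the right in clone 2 with open points in clone 1.

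Of 17 tested genes for other glycolytic isozymes and neighbouring steps, 1 rose in clone 2 and 2 in clone 1, and 1 between genotypes. These are 5.88%, 11.8% and 5.88% of the list, each below the share of all tested genes in its comparison (17.9%, 21.9% and 6.36%). Pgm1, of the phosphoglucomutase family, was that gene between genotypes (0.40 ± 0.08, adjusted p = 0.0244), at 69.6 and 70.4 CPM in clone 2 and 71.1 and 70.0 CPM in clone 1, against 54.8 and 51.8 CPM in WT. Pgm2, of the same family, rose in clone 1 (87.9 and 90.1 CPM, against 39.0 and 39.4 CPM in WT; log2 fold change 1.182) and in clone 2 (32 and 37.3 CPM) it differed from WT by -0.18 (adjusted p = 0.292). Among 9 pentose phosphate genes, 2 rose and 1 fell in clone 2 and 2 fell in clone 1. That is 33.3% of the list in clone 2, beside 17.9% of all tested genes, and 22.2% in clone 1, close to the 21.9% of all tested genes. The fall in both clones was that of Rpe, ribulose-phosphate epimerase, with 34.7 and 28.9 CPM in clone 2 and 43.0 and 36.1 CPM in clone 1, against 88.5 and 84.1 CPM in WT (between genotypes -1.27 ± 0.13, adjusted p = 0.00114). H6pd and Pgd, dehydrogenases of the oxidative arm, rose in clone 2 (0.50 and 0.25), and G6pdx, which encodes the enzyme that opens the arm, fell in clone 1 (-0.34, adjusted p = 0.00897).

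Of 6 genes of gluconeogenesis 3 were tested, and 2 of these fell in clone 1. That is 66.7% of the 3, beside 21.9% of all tested genes (9.53% called lower). Elsewhere edgeR called 0 of the 3 in clone 2 against WT and 0 between genotypes, where 1 and 0 had an unadjusted p under 0.05. Pck2, the mitochondrial PEP carboxykinase, had 223 and 232 CPM in clone 2 and 82.6 and 92.5 CPM in clone 1, against 195 and 206 CPM in WT. It fell in clone 1 (-1.20 ± 0.09, adjusted p = 6.50e-08) and was higher in clone 2 than in clone 1 (1.38, adjusted p = 2.62e-08). Fbp2, a fructose-bisphosphatase at 4.45 to 9.64 CPM in all libraries, was the other that fell in clone 1 (-0.85, adjusted p = 0.0117). Among 11 genes for the entry of pyruvate into mitochondria, 1 rose in clone 2, which is 9.09% of the list beside 17.9% of all tested genes. In clone 1 and between genotypes edgeR called 0, where 2 and 0 had an unadjusted p under 0.05. The gene that rose was Pdhb, the beta subunit of the PDH enzyme that Pdha1 also builds, with 202 and 201 CPM in clone 2 and 140 and 142 CPM in clone 1, against 156 and 158 CPM in WT (0.36 ± 0.08 in clone 2, adjusted p = 0.00342).

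Of 11 transcription factors and regulators linked to glycolysis, 1 rose and 4 fell in clone 2, 1 rose and 4 fell in clone 1, and 3 fell between genotypes. Calls made up 45.5% of this list in each clone, beside 17.9% of all tested genes in clone 2 and 21.9% in clone 1, and 27.3% between genotypes, beside 6.36%. Myc, a known activator of glycolytic genes, had 8.11 and 7.99 CPM in clone 2 and 4.92 and 6.83 CPM in clone 1, against 15.9 and 18.0 CPM in WT, and it fell between genotypes (-1.28 ± 0.21, adjusted p = 0.00885). Its partner Max fell too (-0.43 ± 0.08, adjusted p = 0.0145). Mycn rose in clone 2 (102 and 104 CPM, against 76.3 and 80.2 CPM in WT; 0.39, adjusted p = 0.0189) and in clone 1 (58.2 and 75.5 CPM) it differed by -0.23 (adjusted p = 0.155). The RNA-binding factor Lin28a fell in clone 2 (-0.33, adjusted p = 0.0175), and its relative Lin28b rose in clone 1 (1.83, adjusted p = 9.19e-04).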

How the data were processed

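The values are counts of reads per gene that the authors deposited for each library, whole numbers that were not normalised. RNA was depleted of ribosomal RNA, per the labels' protocols. HISAT2 2.1.0, HTSeq 0.9.1 and the build mm10 appear in the submitters' processing notes, as does DESeq2 1.18.1, with no role stated. The sources used here do not state the annotation or the strand setting. The 5 HTSeq summary entries stayed out of library sizes and tests; reads without a feature were 4.14% to 5.35% and ambiguous reads 6.96% to 9.10% of a library.

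From these counts, edgeR 4.0.16 (R 4.3.3) was run on all genes that passed filterByExpr, with TMM normalisation, its quasi-likelihood F test (two-sided) and p-values adjusted by Benjamini-Hochberg over 14946 genes at 0.05. The libraries labelled knockout were set against WT in a fit of 2 genotypes, and the clone comparisons came from a fit of 3 groups. Adjusted p-values in the text are from edgeR unless DESeq2 (1.42.0) is named. CPM are counts scaled to the TMM-adjusted library total, and levels per kilobase use merged exons of GENCODE M21 on GRCm38, with Aldoa as the union of its 2 entries. Merged exons can be much longer than any 1 transcript, so ranks and shares per kilobase depend on this choice of length. Near-identical copies were sought with BLAST 2.17.0 among GENCODE transcripts. Alternatives were DESeq2, its size factors, no filter beyond 1 count, the mean of both clone contrasts, fits restricted to the 4 libraries compared, a replicate block, and leaving out each library. The fits were tested on data simulated from a common mean per gene, with known changes planted in some genes and no other difference between clones. Of the calls, 6.67% between genotypes, 8.94% in clone 2 against WT, 3.89% in clone 1 against WT and 8.05% between clones were not planted. Planted log2 changes of 0.585 were found in 80.6%, 64.2%, 65.7% and 68.7% of cases, in the same order. Changes were planted only in genes above a minimum mean count. With no difference between clones in the simulation, the values between genotypes need not hold in these data. The members and gene lists were chosen with earlier results of these data known. The text names all 32 members, 7 HIF and Myc genes, and in each other list up to 4 called genes with the smallest p between genotypes and up to 3 per clone comparison; 1 gene taken by that rule and 1 marker are not reported here. Figures were drawn with matplotlib 3.10.9.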

Additional observations from a re-analysis of the deposited data

Results flagged for a closer look

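The clones differed in 11 of the 32 genes by the test of clone 2 against clone 1 itself. Of these, Eno2 and Ldhb were not called against WT in either clone. The log2 fold changes, clone 2 over clone 1, were -1.67 for Eno3, -0.74 for Eno2, -0.70 for Egln1, -0.63 for Egln3, -0.61 for Slc16a3, -0.58 for Pdk1, -0.52 for Bnip3, -0.52 for Aldoc, -0.45 for Pfkfb3, -0.44 for Pfkm and -0.34 for Ldhb. Those of Eno3, Egln1, Slc16a3 and Pdk1 held in each of the 11 alternatives tried.

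Among the 4 libraries labelled knockout, 1 library stood far from the other 3 for 2 genes, judged by the ratio of its gap to the whole range against Dixon's critical value at the 95% level. For Pfkp clone 1 replicate 1 was high, at a ratio of 0.962. For Gpi1 clone 2 replicate 2 was high, at a ratio of 0.859. For 4 independent libraries of 1 kind, chance gives such a ratio in about 5% of groups, and 32 genes were looked at. These 4 libraries came from 2 clones, so that rate need not hold here.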

How the results depend on the processing

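None of the 128 results on single genes changed the sign of a call under any alternative; of their 1408 values under alternatives, 1250 kept their side of the threshold, 98 lost a call and 60 gained 1. For the libraries labelled knockout against WT, 4 of the 32 genes were called, against 9 with no filter beyond 1 count, 14 by the mean of both clone contrasts, 6 by DESeq2, and 0 to 4 when a library was left out. For clone 2 against WT, 11 were called, against 18 in a fit of only the 4 libraries compared and 2 to 16 when a library was left out. For clone 1 against WT, 14 were called, and 8 to 17 when a library was left out. For clone 2 against clone 1, 11 were called, and 5 to 16 when a library was left out. The causes were not tested, but each fit without a library has fewer samples. The share of all tested genes called in each alternative is not given beside these counts. They therefore do not show a change particular to the 32 genes. With a group reduced to 1 library, that library is assumed to vary like the others.

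Same-numbered libraries deviated together at r = 0.32 between clone 2 and clone 1, 0.0861 between clone 2 and WT and 0.191 between clone 1 and WT. All of these r lie above 0, and the main fits did not pair the libraries. In each group, replicate 1 had a lower share of ambiguous reads and a higher share without a feature than replicate 2. Whether the numbers mark libraries handled together was not tested. With a replicate block, 0 genes were called between genotypes (adjusted p = 0.0602 to 0.0727 for Eno1, Egln3, Pdha1 and Hk2), 14 in clone 2, 19 in clone 1 and 13 between clones. Depth limits Ankrd37, Pfkfb4, Pdk2 and Eno2 most.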

Other observations

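Genes next to the called members were called at a higher share than all tested genes in clone 1 against WT and at a lower share in the other 3 comparisons, with no test of the difference. Taking the 5 tested genes with a mean of 1 CPM or more on each side, 18 of 110 neighbours of the genes called in clone 2 against WT were called in that comparison (16.4%), beside 17.9% of all tested genes. In clone 1 against WT it was 35 of 140 (25%), beside 21.9%, and between the clones 15 of 110 (13.6%), beside 14.3%. Between genotypes it was 1 of 40 (2.5%), beside 6.36%.

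The balance of PDH kinases per kilobase also differed between the clones. Pdk1 made up 41.6% of the sum of Pdk1, Pdk2 and Pdk3 in clone 2 and 48.1% in clone 1, against 49.3% in WT. Pdk3 made up 46.5% in clone 2 and 44.2% in clone 1, against 38.8% in WT. For lactate dehydrogenase, Ldhb made up 36.4% in clone 2 and 40.7% in clone 1, against 36.3% in WT. These shares carry no test.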
